A study of Mus musculus with 2 samples.

Results

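The p53 pathway was read here through 8 genes: Gtse1, a regulator of p53, and the p53 targets Cdkn1a, Mdm2, Ccng1, Btg2, Sesn1, Trp53inp1 and Zmat3. They were chosen by an earlier account of these arrays, which had singled out Gtse1, Btg2, Trp53inp1, Sesn1 and Zmat3 on their ratios between the arrays, so their values are given as a description. A probe set, the group of short probes that together read a transcript, was taken where the annotation table gives it exactly 1 gene symbol and that symbol is in the group. This gave 16 of the 22626 probe sets that are not controls. The chosen group also holds Trp53 and Bax, with which the table used here names no probe set, so that neither is analysed here. RNA came from the mouse embryonic fibroblast line NIH 3T3, 48 hours after transfection with Lipofectamine. One culture received the plasmid pHA-CMV-ATCE1-C-del, whose CMV promoter drives ATCE1 without its C terminus, described as the nuclear form of this CREB family transcription factor. The control culture received the same HA-tag vector without insert. There was 1 array per plasmid, so no value has a replicate error, no test was possible, and every difference is one between 2 arrays.

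The protein p53 is a transcription factor that stress and DNA damage stabilise. It switches on Cdkn1a, which encodes the cyclin-dependent kinase inhibitor p21, other arrest genes, death genes such as Trp53inp1, and Mdm2, whose product in turn marks p53 for degradation. Gtse1 encodes a microtubule-binding protein made in G2 and mitosis that can bind p53, carry it out of the nucleus and lower its activity. NIH 3T3 cells are known to lack the Cdkn2a locus, whose Arf product holds Mdm2 in check. On these arrays the Cdkn2a probe set read 11.8 with ATCE1-C-del against 7.7 with empty vector, both under the floor.

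Promoter sequences are shown for the member furthest above the control (Gtse1), a target with higher signals (Btg2), a target with lower signals (Sesn1) and the target for which p53 is best known (Cdkn1a). Each is the 250 bases before the upstream-most start in a RefSeq promoter table of GRCm38.p6, written 5′ to 3′ on the gene's own strand. Capitals mark matches on either strand to 5 motifs. The full cAMP response element (CRE) is TGACGTCA and contains its shorter core, TGACG, on both strands. The CCAAT box is spelled by its name. A cell cycle homology region (CHR) was searched as TTTGAA and, in its second form, as TTTAAA. The p53 half-site consensus is the last.

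Gtse1, chr15:85859457-85859706, plus strand: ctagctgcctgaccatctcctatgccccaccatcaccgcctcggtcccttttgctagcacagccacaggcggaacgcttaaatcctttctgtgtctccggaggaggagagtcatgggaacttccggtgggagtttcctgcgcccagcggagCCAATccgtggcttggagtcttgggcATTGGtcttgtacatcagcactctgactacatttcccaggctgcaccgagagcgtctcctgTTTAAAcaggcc
Btg2, chr1:134079156-134079405, minus strand: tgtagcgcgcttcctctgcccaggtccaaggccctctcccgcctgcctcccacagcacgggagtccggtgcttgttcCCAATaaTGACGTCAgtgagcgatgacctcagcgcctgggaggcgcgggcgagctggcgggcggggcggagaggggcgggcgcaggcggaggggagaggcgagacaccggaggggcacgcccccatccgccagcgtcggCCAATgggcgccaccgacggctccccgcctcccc
Sesn1, chr10:41810324-41810573, plus strand: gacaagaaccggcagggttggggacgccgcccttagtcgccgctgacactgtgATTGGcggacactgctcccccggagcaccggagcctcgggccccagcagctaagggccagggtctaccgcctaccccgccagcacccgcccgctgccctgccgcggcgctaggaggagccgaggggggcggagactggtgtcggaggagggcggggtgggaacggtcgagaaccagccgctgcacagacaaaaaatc
Cdkn1a, chr17:29090729-29090978, plus strand: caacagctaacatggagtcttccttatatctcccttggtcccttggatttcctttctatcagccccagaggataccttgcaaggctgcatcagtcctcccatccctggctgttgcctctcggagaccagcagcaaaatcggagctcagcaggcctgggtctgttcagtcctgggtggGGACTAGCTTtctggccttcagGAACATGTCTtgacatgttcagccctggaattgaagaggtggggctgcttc

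The Gtse1 window held 2 CCAAT boxes and 1 CHR of the second form, motifs common in promoters of genes transcribed in G2, and no match to the CRE, to its core or to the p53 half-site. In Btg2 there was 1 full CRE, whose first base lies 166 bases before the start, and 2 CCAAT boxes. Cdkn1a had 2 p53 half-site matches, the one nearer the start being GAACATGTCT, and Sesn1 had 1 CCAAT box. Of all 32851 windows of this length, 1.55% held the full CRE, 17.8% the CRE core, 33.8% a CCAAT box, 16% the first form of the CHR, 12.1% its second form and 7.13% the p53 half-site consensus. These are matches of letters and do not show binding. The table held 6 of the 8 genes, all but Trp53inp1 and Zmat3. Of the further windows, the downstream start of Gtse1 had 1 CCAAT box and 1 CHR of the second form, the downstream start of Sesn1 had 1 CRE core, 1 CCAAT box and 1 p53 half-site match, and that of Cdkn1a had none of these motifs. Mdm2 had 1 p53 half-site match, 1 CCAAT box and 1 CHR of the second form, and Ccng1 had 1 p53 half-site match and 3 CCAAT boxes.

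All values are MAS5 signals, brightnesses on a linear scale with the same trimmed mean of 250.1 on both arrays. Each array's median, 77.4 with ATCE1-C-del against 75.8 with empty vector, served as a floor to which dimmer signals were raised. Ratios set ATCE1-C-del over empty vector and are given in log2 or as a fold. A probe set counts as measured if it reached the floor on at least 1 array, which 11637 did. Creb3l4, the gene of ATCE1, lay under the floor on both arrays, and since the place of its probes relative to the insert is unknown here, this does not check the labels. All 8 fibroblast markers were measured, none of 6 epithelial and 4 endothelial markers was, and of 5 macrophage markers only Cd68 and Cd14 were. Summed signals of the macrophage markers were 333.1 with ATCE1-C-del against 263.5 with empty vector, and their part in the results was not tested.

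Gtse1 was the one member at least 2-fold higher. The p53 targets went in no common direction: Ccng1 and Btg2 were higher on every measured probe set, Sesn1, Trp53inp1 and Zmat3 were lower on every measured one, and Mdm2 and Cdkn1a had probe sets on both sides of 0. Of the 16 probe sets, 15 were measured, 14 of them on both arrays. Of these 15, 8 were higher and 7 lower, and 50.5% of all measured probe sets were higher. Among the 8 is 1448272_at of Btg2, which reached the floor only with ATCE1-C-del, so that its direction was fixed by the floor. At 1.5-fold, 1 was higher (Gtse1), where 1.12% of all measured probe sets were, and 1 was lower (a Sesn1 probe set), where 1.39% were. At 2-fold, 0 were lower, where 0.0687% of all were. Their median log2 ratio was 0.01, against 0.00 (0.0032) over all measured probe sets. A median near 0 here joins genes that lie well apart, as the plot of signals by probe set shows.

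**Figure D1:**
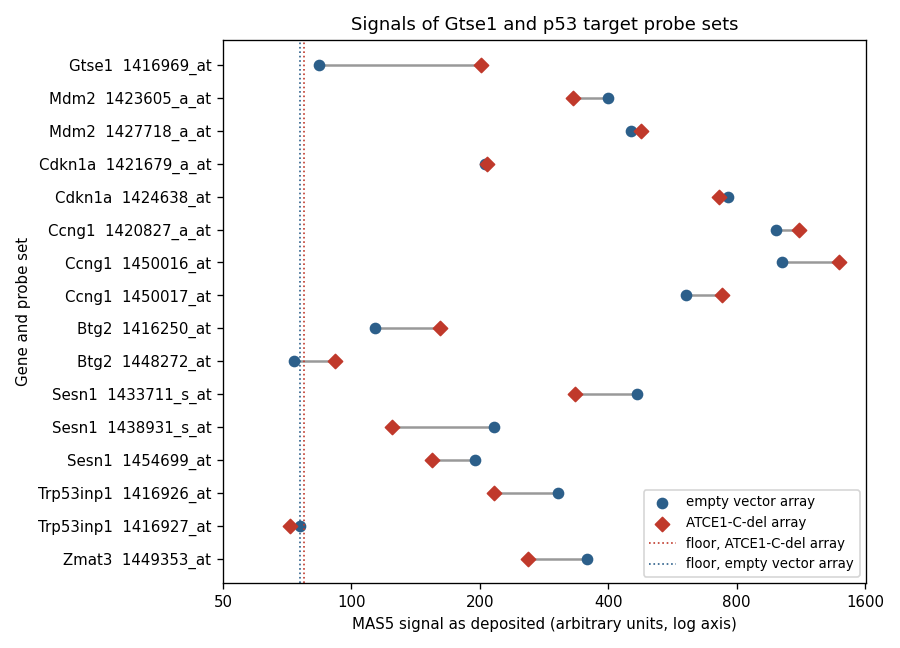
MAS5 signal as deposited (log axis, arbitrary units) of each of the 16 probe sets on the empty vector array (blue circles) and the ATCE1-C-del array (red diamonds), joined by a grey line, with each array's floor dotted. Gtse1 goes from 84.1 to 200.8, all 3 Ccng1 probe sets lie to the right with ATCE1-C-del, and all 3 Sesn1 probe sets lie to the left. Signals of different probe sets cannot be compared with each other.

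The regulator Gtse1 had 1 probe set (1416969_at), which read 200.8 with ATCE1-C-del against 84.1 with empty vector. The control signal lay just above the floor of 75.8, and the ATCE1-C-del signal well above its own. The ratio was 2.39-fold higher (log2 ratio 1.26). Of all 11637 measured probe sets, 4 including this one were at least as high, and 0.0773% reached 2-fold higher. Ratios spread more at low signal: among probe sets with a mean signal under 2 floors, where Gtse1 lies, 2.25% were at least 1.5-fold higher, against 0.367% of those over 4 floors. Within that dim band, 2 of 2887 probe sets, Gtse1 included, were as high. No second probe set is named with Gtse1, so its ratio has no check within the arrays. More cells that make a transcript and more transcript per cell cannot be told apart in these bulk samples. Over the scalings, floors and log scales tried in which it was measured, its log2 ratio ran from 1.11 to 1.5. Raising the floor to the 75th percentile put both of its signals under it, so that it was not measured.

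Mdm2, both a target of p53 and the ubiquitin ligase that removes it, was read by 2 probe sets that went opposite ways. Probe set 1423605_a_at read 330.6 with ATCE1-C-del against 398.8 with empty vector, 1.21-fold lower (log2 ratio -0.27). On 1427718_a_at the signals were 476.5 and 451.6, 1.05-fold higher (log2 ratio 0.08). The probe sets thus differed by 0.35 in log2 ratio. Opposite signs were common: of 1638 genes with exactly 2 probe sets above the floor on both arrays, 40.4% had them, and 21.7% had a difference at least as large as that of Mdm2. Both probe sets of Mdm2 carry the suffix for several transcripts of 1 gene, and the arrays give no direction for Mdm2 as a whole.

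Cdkn1a was level. The p21 transcript read 207.6 with ATCE1-C-del against 205.5 with empty vector on 1421679_a_at, a log2 ratio of 0.01. On 1424638_at it read 726.7 and 764.9, a log2 ratio of -0.07. These probe sets differed by 0.09 in log2 ratio. Their SD was 0.06, against 0.21 between probe sets of 1 gene over the 2451 genes with at least 2 above the floor on both arrays. Single arrays cannot show that Cdkn1a was unchanged.

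Ccng1, which encodes cyclin G1, a partner of protein phosphatase 2A in the control of Mdm2, was higher on all 3 of its probe sets. The highest ratio was on 1450016_at, with 1389.0 against 1023.7 for empty vector, 1.36-fold. Probe set 1450017_at read 739.0 against 608.5, 1.21-fold higher. On 1420827_a_at the signals were 1121.3 and 991.1, 1.13-fold higher. The log2 ratios of 0.44, 0.28 and 0.18 have a mean of 0.30 with an SD of 0.13 over the 3 probe sets, which were designed on 1 sequence and share their target, so that this SD leaves out the variation between cultures. Of 543 genes with exactly 3 probe sets above the floor on both arrays, 21.4% had all 3 higher, and in 17, Ccng1 included, all 3 were at least as high as its lowest. None of the 3 passed 1.5-fold.

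Btg2, an antiproliferative target of p53 that is also an immediate early gene, was higher on both probe sets. On 1416250_at it read 161.4 with ATCE1-C-del against 113.6 with empty vector, 1.42-fold higher (log2 ratio 0.51), where 2.02% of all measured probe sets and 3.84% of those in the same dim band were as high or higher. On 1448272_at the signals were 91.6 and 73.5, and since the latter lies under the floor the ratio is at least 1.21-fold higher. A probe set that reaches the floor only with ATCE1-C-del has to come out higher, so 1448272_at adds no second check of the direction. Both probe sets were designed on the same transcript and neither reached 1.5-fold.

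Sesn1 encodes sestrin 1, a stress-induced inhibitor of mTORC1 signalling, and was lower on all 3 probe sets. The brightest, 1433711_s_at, read 335.2 with ATCE1-C-del against 468.4 with empty vector, 1.40-fold lower. On 1438931_s_at the signals were 124.2 and 216.5, 1.74-fold lower. Probe set 1454699_at read 154.4 against 195.4, 1.27-fold lower. The log2 ratios of -0.48, -0.80 and -0.34 have a mean of -0.54 and an SD of 0.24 over probe sets, of which the first and last were designed on the same sequence. Of the 543 genes with exactly 3 such probe sets, 17.5% had all 3 lower, and in 2, Sesn1 included, all 3 were at least as low as the highest of Sesn1. The most lowered, 1438931_s_at, also had the lowest mean signal of the 3. At signals like its own, 2 to 4 floors, 1.62% of probe sets were at least 1.5-fold lower. Over 4 floors, where the brightest lies, 0.84% were. The probe set past 1.5-fold and the brightest both have a suffix saying that they can match several transcripts. The one without it, 1454699_at, was the least lowered, with 7.57% of all measured probe sets as low. Leaving probe sets with such a suffix out left 0 members at least 1.5-fold lower.

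Trp53inp1, which encodes a p53-induced protein of the nuclear bodies that promotes arrest and death, had 1 of 2 probe sets measured. On 1416926_at it read 215.4 with ATCE1-C-del against 304.6 with empty vector, 1.41-fold lower (log2 ratio -0.50), and 2.47% of all measured probe sets were as low. The other, 1416927_at, read 71.6 and 75.6, under the floor on both arrays, and gives no ratio. Zmat3 encodes an RNA-binding zinc finger protein induced by p53. Its probe set 1449353_at read 258.9 against 357.0, 1.38-fold lower (log2 ratio -0.46), and 3.21% were as low. Neither gene passed 1.5-fold.

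**Figure D2:**
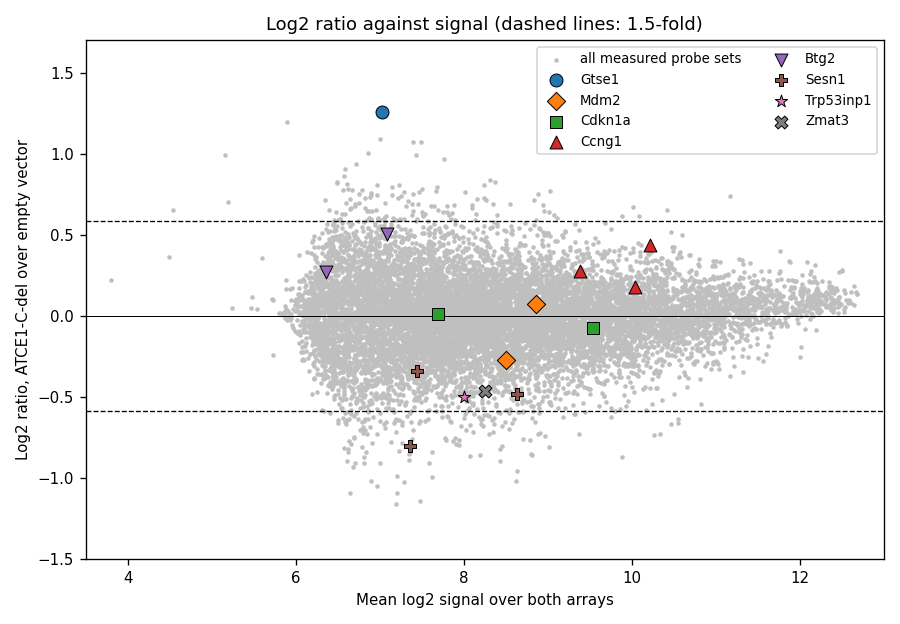
Log2 ratio, ATCE1-C-del against empty vector (vertical axis) against the mean log2 signal over both arrays (horizontal axis) for all 11637 measured probe sets (grey) and the 15 measured probe sets of the 8 genes (coloured symbols), with 1.5-fold as dashed lines. Gtse1 lies at 1.26 above nearly all grey points, 1 Sesn1 symbol lies under the lower line at -0.80, and 3 probe sets of other genes lie above the upper edge of 1.7.

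The middle 95% of all measured probe sets ran from -0.50 to 0.48 in log2 ratio. Of the members, 4 probe sets lay outside it: Gtse1, the first of Btg2, 1 of Sesn1 and, at its edge, that of Trp53inp1. Gtse1, with the targets Btg2 and Ccng1, makes 6 probe sets that were higher, and Sesn1, Trp53inp1 and Zmat3 make 5 that were lower. The second Btg2 probe set counts among the 6 with a direction that the floor fixed. Of the member targets that bring about arrest, Btg2 was higher, Cdkn1a level and Trp53inp1, which promotes both arrest and death, lower.

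Further genes of the pathway came from lists written with an earlier account of these arrays known, with 1 value per gene from its brightest probe set. Of 57 named p53 targets outside the members, 43 were measured, 19 higher and 24 lower, and their log2 ratios had a median of -0.03. None was at least 1.5-fold higher and 2 were at least 1.5-fold lower, where 0.925% and 1.07% of 6810 measured genes were and the median over all genes was -0.01. Of all 6810 measured genes, 3317 were higher and 3493 lower, the share to set beside the counts of each list. In these counts, a gene that reached the floor on only 1 array has a direction that the floor all but fixes. Targets of arrest and DNA repair had 8 of 10 lower and a median of -0.15. Among the 8, Polk and Ddb2 (62.3 against 78.2) reached the floor only with empty vector. The translesion polymerase gene Polk was at least 1.91-fold lower, with 70.8 under the floor on the ATCE1-C-del array against 147.8, Rev3l, of another translesion polymerase, was 1.37-fold lower and the growth arrest gene Gadd45a was 1.32-fold lower. On the other side were Cdc25c, a phosphatase of mitotic entry that p53 represses, at least 1.46-fold higher at 110.5 against 70.5, and the replication clamp gene Pcna, 1.06-fold higher. With scaling to the hybridisation controls, which moves the median of all measured probe sets to 0.25, the median of this list moved to 0.10.

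Death targets lay on both sides, with 8 of 14 higher and a median of 0.02, and none of the floored ratios passed 1.5-fold. The decoy receptor gene Tnfrsf23 was 1.30-fold higher, Pmaip1, which encodes the BH3 protein Noxa, at least 1.28-fold higher at 97.3 against 24.1 (past 1.5-fold if the floor is left out), and Bok, of the Bcl-2 family, stood at a log2 ratio of 0.26. Lower were Dcxr, which encodes a sugar reductase and is no death gene by that activity, at 1.29-fold, the apoptosome gene Apaf1 at 1.29-fold, the second probe set of which lay at -0.50 in log2, and Ei24 at 1.10-fold. Bbc3, which encodes the death protein Puma, was level at 105.5 against 104.4. Fas, Perp and Tnfrsf10b, death genes at the cell surface, were under the floor on both arrays.

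Targets in metabolism and growth signalling had 9 of 19 higher and a median of -0.02. The relatives of Sesn1 stood apart from each other: Sesn3 was 1.78-fold lower, at 147.0 against 262.2, and Sesn2 was 1.26-fold higher, at 130.7 against 104.0. Sesn3 has no other measured probe set, and the second one of Sesn2 lay at 0.12 in log2. Lpin1, a phosphatidate phosphatase, was 1.40-fold lower (-0.37 in log2 on the second probe set), and the antigen transporter gene Tap1 was at least 1.15-fold lower. The matrix gene Thbs1 was 1.18-fold higher (0.30 in log2 on the second), and Hexim1, an inhibitor of transcription elongation, was 1.17-fold higher (-0.06 on the second).

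Regulators of p53 had 15 of 27 measured genes higher and a median of 0.01. Over the alternatives the count past 1.5-fold ran from 0 to 4. The 4 came with the 25th percentile floor, where 1446 of all 17831 measured probe sets were at least 1.5-fold higher and 647 lower. As reported, 1 regulator passed 1.5-fold, where 0.925% of all measured genes were that much higher and 1.07% lower. This regulator was Trp53bp1, a DNA break protein that binds p53, 1.81-fold lower at 335.4 against 606.1. Its second probe set lay at -0.37 in log2. Its brightest probe set can match several transcripts. Crebbp, an acetyltransferase that serves both p53 and CREB, was 1.34-fold lower, at 82.3 against 110.2, and the DNA-dependent kinase gene Prkdc was at least 1.28-fold lower. Mdm4, the partner of Mdm2, was outside the naming rule and is given as its closest relative: it was 1.21-fold lower. Higher were the checkpoint kinase gene Chek1 at 1.32-fold (0.02 in log2 on the second probe set), the mitotic kinase gene Aurka at 1.24-fold and the nucleolar gene Npm1 at 1.18-fold. The p53 relatives Trp63 and Trp73 were under the floor on both arrays.

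Genes of G2 and mitosis, the phase in which Gtse1 is made, were above the control in 28 of 30 measured cases, at a median of 0.29 in log2, where 48.7% of all measured genes were higher. Nek2 was at least 1.56-fold higher, at 118.0 against 67.1, Cenpa was 1.54-fold higher and Kif11 was 1.49-fold higher. Nek2 reached the floor only with ATCE1-C-del, so its place among the 28 was fixed by the floor. The lower ones were Cenpe at -0.02 and Mki67 at -0.02. Of the genes of this list above the floor on both arrays, Cenpa was highest at 0.62 in log2 on the brightest probe set, and a further probe set of Foxm1 stood at 0.74 (Gtse1: 1.26). Aurka stands in both this list and that of the regulators.

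Microtubule plus end proteins, with partners of Gtse1, were higher in 9 of 15 measured cases, at a median of 0.02 in log2, and none passed 1.5-fold on its brightest probe set. Psrc1, itself also a p53-regulated spindle gene, was 1.42-fold higher (0.69 in log2 on the second probe set), and 1 gene of the list passed 1.5-fold when probe sets were averaged. Tacc3 was 1.27-fold higher, and Kif2c, a microtubule depolymerase that Gtse1 inhibits, was 1.23-fold higher (-0.09 and 0.36 on further probe sets). Clathrin heavy chain (Cltc), which with Tacc3 brings Gtse1 to the spindle, lay at a log2 ratio of -0.33, Mapre2 was 1.19-fold lower (0.23 and -0.66 on further probe sets) and Clasp1 was 1.15-fold lower (0.07 on the second).

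**Figure D3:**
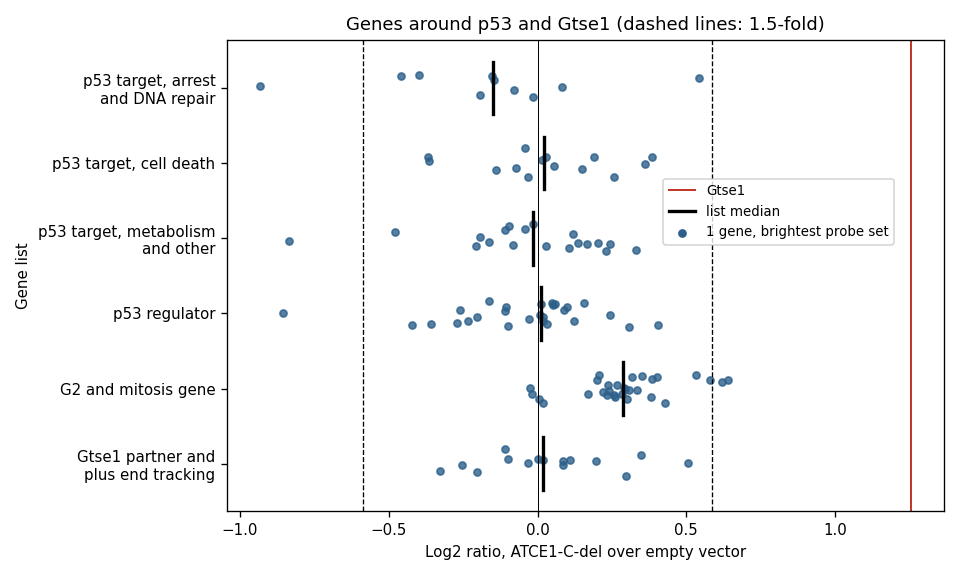
Log2 ratio, ATCE1-C-del against empty vector (horizontal axis) for each measured gene (blue points, brightest probe set, vertical jitter only for legibility) of 6 lists (rows), with the list median as a black bar, 1.5-fold as dashed lines and Gtse1 as a red line at 1.26. The G2 and mitosis genes lie almost all to the right of 0, with a median of 0.29, and the other 5 medians lie between -0.15 and 0.02.

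Gtse1 stood highest and 1438931_s_at of Sesn1 lowest among the members under every scaling, floor and log scale tried except the 75th percentile floor, where neither was measured. The 3 Ccng1 and 2 Btg2 probe sets stayed above 0 and those of Sesn1, Trp53inp1 and Zmat3 below 0 wherever they were measured. As reported, the sign of 1448272_at of Btg2 was fixed by the floor. Those of Cdkn1a changed sign, 1421679_a_at with array medians (-0.02) and 1424638_at with the hybridisation controls (0.17). With that scaling the first Btg2 probe set reached 0.75 and the highest of Ccng1 0.69, both past 1.5-fold, and the lowest of Sesn1 came to -0.56, no longer past it.

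**Figure D4:**
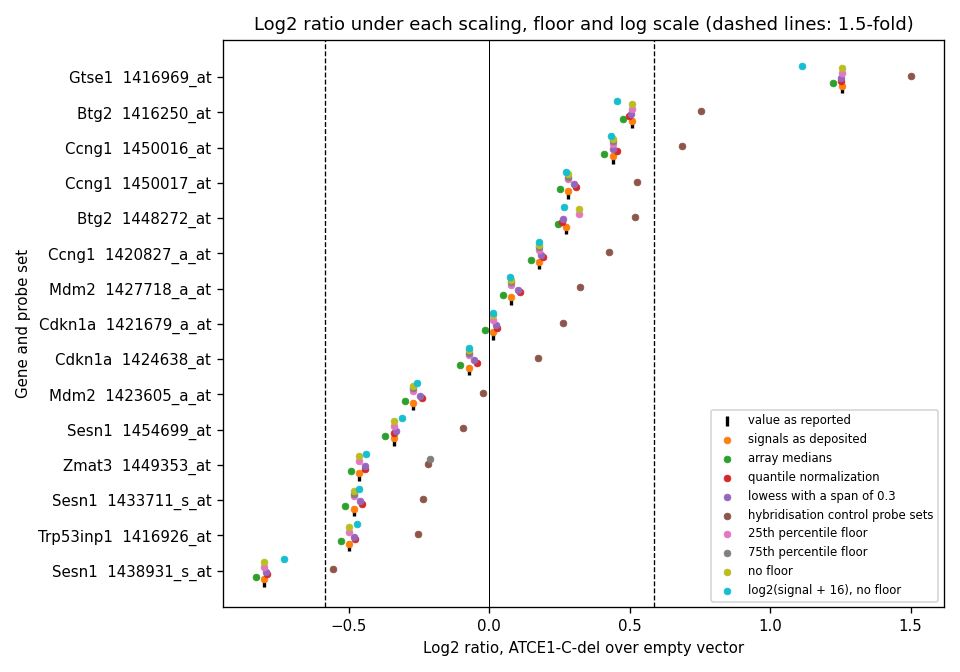
Log2 ratio, ATCE1-C-del against empty vector (horizontal axis) of the 15 measured probe sets (rows, sorted by the reported value) as reported (black ticks) and under 9 other scalings, floors and log scales (coloured points), with 1.5-fold as dashed lines. Scaling to the hybridisation controls (brown) shifts all members to the right by about the same amount, and the other points lie close to the reported value except for Zmat3 with the floor at the 75th percentile (-0.21).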

How the data were processed

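The authors deposited linear MAS5 intensity values, per the submitters' processing notes (version not given in the sources used here). No detection calls were used. Each of the 2 arrays was divided by its trimmed mean (2% at each end), signals under the array's median were raised to it, and log2 ratios were taken. The floor replaces a detection call and is cruder. Names came from the platform's annotation table (1 symbol for 20393 probe sets, several for 691, none for 1606), and matching Entrez IDs to RefSeq (GRCm38.p6) changed 0 symbols. Members and lists were chosen with earlier results of these data known. All member probe sets are named, and of each list up to 3 genes per direction and those past 1.5-fold. A few others that illustrate a group were chosen after their values were seen: Bbc3, Ddb2, Fas, Perp, Tnfrsf10b, Mdm4, Trp63, Trp73 and Cdkn2a. With 1 array per group, differences were counted by size (1.5-fold) and no test was made. The number of arrays limits the precision. The procedure was tested on simulated data with 1 noise level (SD 0.2 in log2). The 3-fold changes were placed only in probe sets with a control signal above 2 times the median. That test does not cover changes in dim probe sets such as those of Gtse1 and Btg2. Alternatives covered scaling, floor, log scale, threshold and choice of probe sets. Software was matplotlib 3.10.9, statsmodels 0.14.6, scipy 1.17.1, pandas 2.3.3 and numpy 2.4.6 under Python 3.11.15.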

Additional observations from a re-analysis of the deposited data

How the results depend on the processing

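With single arrays no replicate could be left out. No paired analysis was possible because each group has 1 array. The median log2 ratio of the measured member probe sets was 0.01, and it moved to 0.26 with scaling to the hybridisation controls, which moved the median of all measured probe sets to 0.25, and to 0.27 without probe sets that can match several transcripts, which leaves 9 of 15. At 1.5-fold, 1 member probe set was higher and 1 lower. With the 75th percentile as floor, which leaves 8 member probe sets measured, both counts were 0. With the hybridisation controls 3 were higher and 0 lower, where 795 of all 11637 measured probe sets were higher and 30 lower. Without probe sets that can match several transcripts 0 were lower. The looser threshold gave 3 higher and 5 lower. The share of all measured probe sets past that looser threshold was not counted here. Gtse1, Btg2, Trp53inp1, Sesn1 and Zmat3 had also been singled out on these ratios, so the looser counts are a description only. The 2-fold threshold gave 1 higher and 0 lower. Lowess (span 0.3), quantile normalization, scaling by array medians, unscaled signals, the 25th percentile as floor, no floor, and log2(signal + 16) left both member counts as reported. The counts of list genes past 1.5-fold in either direction moved more. From 1 arrest, 0 death, 1 metabolism and 1 regulator gene they went to 5, 2, 4 and 4 with the 25th percentile floor and to 2, 1, 3 and 2 without a floor. With the 75th percentile floor they were 0 for arrest and metabolism, and log2(signal + 16) gave 1 death and 2 metabolism genes. Counts over all measured probe sets moved too. As reported, 130 of 11637 were at least 1.5-fold higher and 162 lower. With the 25th percentile floor 1446 of 17831 were higher and 647 lower, and without a floor 206 and 226 of 11637. The 75th percentile floor gave 16 and 35 of 5930, and log2(signal + 16) gave 136 and 153 of 11637. The 2 genes of G2 and mitosis became 1 with the 75th percentile floor or without probe sets that can match several transcripts, which also left 0 regulators, and 3 with lowess or quantile normalization. Scaling to the hybridisation controls gave 9 for G2 and mitosis and 2 each for arrest, death, regulator and plus end genes. That scaling put 795 of all 11637 measured probe sets at least 1.5-fold higher. Averaging the probe sets of a gene took the plus end count from 0 to 1. Signal over background limits Gtse1, Btg2 and the second Trp53inp1 probe set, which lie near the floor.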
